A study of Mus musculus with 6 samples.

Results

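The 45 olfactory receptor (OR) genes numbered Olfr90 to Olfr137, most of which form an OR cluster linked to the major histocompatibility complex, were followed by single-cell RNA-seq in the mouse main olfactory epithelium (MOE). They were chosen by name alone, as every Olfr gene from Olfr90 to Olfr137 whose name has no suffix, and make up 45 of the 1116 OR genes named that way among the 24564 genes of the files. In the GENCODE M21 annotation of GRCm38, 44 of the 45 lie on chromosome 17 between positions 37083871 and 38336643. Of these, 22 lie on each strand, and all are annotated as protein coding. Olfr100 is absent from that annotation, and RefSeq assigns it to chromosome 17, so it is counted here without a position. A mature olfactory sensory neuron (mOSN) was a cell with at least 10 unique molecular identifiers (UMIs) of Omp, the olfactory marker protein of mature neurons, and more UMIs of Omp than of Gap43, a growth protein of immature ones. The OR with the most UMIs in an mOSN, at 3 UMIs or more, was taken as the OR that the cell chose. By this rule 189 of 4980 mOSNs with an OR chose one of the 45 genes.

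Each mOSN expresses a single allele of a single OR gene, and neurons with the same OR send their axons to common glomeruli of the olfactory bulb. An OR is chosen only within a zone of the epithelium that runs from dorsal to ventral, and neurons carry zonal genes that do not code for ORs, such as the dorsal oxidoreductase Nqo1 and the ventral adhesion molecule Ncam2. OR loci that are not chosen are covered by heterochromatin marked with H3K9me3, which heterochromatin protein 1 (HP1) proteins bind. The ORs linked to the histocompatibility complex belong to class II, the larger of the OR classes, whose genes lie in clusters on many chromosomes.

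The study compared 2 libraries of swap mice with 2 of control mice, and added 1 library of gg8-tTA mice and 1 of gg8-tTA; tetOP2iresGFP mice. Swap mice (Cbx*/*; Cre) carried 2 knock-in alleles from which, after Cre recombination, Cbx5 (HP1α) replaced Cbx1 (HP1β) under the Cbx1 promoter. The control libraries were not alike, since replicate 1 is labelled as wild type with Cre and replicate 2 as Cbx*/* without Cre, so neither the allele nor Cre alone is common to both. In the tetOP2 library the tTA activator, expressed in immature OSNs, drives a transgenic Olfr17 (P2), and gg8tTA carries the activator without that transgene. The labels number the replicates without tying them to separate mice and give no ages, so no p-value below can speak for the spread between mice, and the single gg8tTA and tetOP2 libraries entered no test between groups.

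The libraries kept 2563 to 5091 cells at median depths of 9991 to 11543 UMIs, and no pair of them shared more than 0.507% of the barcodes of the smaller library, a share reached by gg8tTA and tetOP2 with 13 barcodes. They held 680 to 1312 mOSNs, 599 to 1183 of them with an OR. None of the 8 mOSN markers was at 0 in the cells that chose Olfr90 to Olfr137, where the markers summed to 6424 to 13074 CPM (UMIs per 1000000) per library against 6453 to 13390 CPM in the other mOSNs. Over all mOSNs, Cbx1 stood at 85.6 and 136 CPM in the control libraries against 1.87 and 2.95 CPM in the swap libraries, and Cbx5 stood at 21.3 and 40.2 CPM against 81.2 and 97.6 CPM, without overlap for either gene. Both differences lie in the direction of the labels, although edgeR's quasi-likelihood test gave an adjusted p of 0.162 for Cbx1 (log2 fold change −5.49, SE 0.42) and 0.781 for Cbx5 (1.55).

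Many of the 45 genes have near-identical neighbours. In 40 pairs, formed by 29 of the genes, the reading frames were at least 90% identical, so most bases of the reading frame do not tell such neighbours apart. Olfr110 and Olfr111 were the closest of the pairs aligned in full, with 18 of 954 bases different (98.1% identity). Olfr117 and Olfr130 differed at 27 of 954 bases (97.2%), Olfr101 and Olfr102 at 35 of 951 (96.3%), Olfr127 and Olfr128 at 34 of 927 (96.3%), and Olfr119 and Olfr121 at 43 of 966 (95.5%). The 90 coding bases of each pair that held the most differences are printed for 3 pairs that hold genes set apart in the comparison of swap with control libraries, with the differing bases in capitals. They were read 5′ to 3′ on the coding strand from the GENCODE M21 transcripts, on GRCm38, and each lies within 1 exon. Olfr101 is shown at chr17:37300124-37300213 (- strand), Olfr102 at chr17:37314086-37314175 (- strand), Olfr127 at chr17:37903616-37903705 (+ strand), Olfr128 at chr17:37923636-37923725 (+ strand), Olfr119 at chr17:37700789-37700878 (+ strand) and Olfr121 at chr17:37751973-37752062 (+ strand).
Olfr101: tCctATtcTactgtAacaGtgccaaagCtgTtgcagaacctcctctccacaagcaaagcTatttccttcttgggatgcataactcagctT
Olfr102: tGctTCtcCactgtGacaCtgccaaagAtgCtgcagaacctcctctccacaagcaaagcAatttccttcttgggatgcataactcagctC
Olfr127: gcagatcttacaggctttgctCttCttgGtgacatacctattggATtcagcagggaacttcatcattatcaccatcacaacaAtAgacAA
Olfr128: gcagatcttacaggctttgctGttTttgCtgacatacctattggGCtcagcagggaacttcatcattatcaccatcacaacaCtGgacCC
Olfr119: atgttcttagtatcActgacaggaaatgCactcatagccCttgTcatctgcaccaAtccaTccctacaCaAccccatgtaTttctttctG
Olfr121: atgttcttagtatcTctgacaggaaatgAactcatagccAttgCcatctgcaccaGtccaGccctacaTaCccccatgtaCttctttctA

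Reads of a 3′ library fall mostly near the end of a transcript. Over the last 500 transcript bases, the longest run shared by both genes was 8 bases for Olfr101 and Olfr102, 8 for Olfr127 and Olfr128, 9 for Olfr110 and Olfr111, 12 for Olfr117 and Olfr130, 14 for Olfr118 and Olfr120, and 35 for Olfr119 and Olfr121. A longest run between windows of fixed length is not an alignment, so it does not show how alike the ends are. Over their whole transcripts, Olfr110 and Olfr111 shared a run of 440 bases. Whether reads of a gene could match its neighbour was not tested by these runs. The counts of the cells kept the neighbours apart. In 108 mOSNs that chose a gene with such a partner, 14724 UMIs fell on the chosen OR, and its partners together held 8 UMIs in 7 of the cells. Olfr101 had 1559 UMIs in the 7 mOSNs that chose it, with none on Olfr102 or Olfr103. The gene bodies of Olfr115 and Olfr116 overlap on the same strand, so the division of UMIs between these 2 genes is uncertain.

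Of the 45 ORs, 41 were chosen by at least 1 mOSN, and Olfr100, Olfr108, Olfr114 and Olfr118 by none. An OR of the set was chosen by a median of 4 mOSNs and a mean of 4.20, against a median of 3 and a mean of 4.47 for the other 1071 OR genes, of which 19.9% were chosen by no cell against 8.89% here. Olfr131 was the only gene of the 45 chosen in every library, and 9 were chosen in a single library. A count of 0 in a library allows up to 2.54 to 5.01 cells per 1000 mOSNs with an OR, so absence from 1 library is not detectable as a loss.

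The ORs chosen most often are spread along the whole cluster. Olfr95, near its proximal end, was chosen by 15 mOSNs, of which 13 were in swap replicate 2 and 1 in each control library. Olfr131, near the distal end, was chosen by 12 mOSNs, with 1 and 3 in the control libraries, 5 and 1 in the swap libraries and 1 each in gg8tTA and tetOP2. These leaders therefore differ in kind, the one resting on a single library and the other present in all of them. Olfr116 was chosen by 2 and 5 control mOSNs, 1 and 1 swap mOSNs and 2 gg8tTA mOSNs. Olfr125 was chosen by 2 and 3 mOSNs in control, 2 and 3 in swap, 1 in gg8tTA and none in tetOP2. Per 1000 mOSNs with an OR this was 2.08 and 2.54 in control against 3.06 and 3.21 in swap. As the cell counts are equal, this difference comes only from the numbers of mOSNs with an OR. Olfr110 was chosen by 5 mOSNs in control replicate 2 and 3 in swap replicate 2, and by none elsewhere, so it was seen in the replicates numbered 2 and not in those numbered 1. Olfr130 was chosen by 2 mOSNs in control replicate 2, 2 in gg8tTA and 4 in tetOP2. Olfr112 was chosen by 3 mOSNs in control replicate 2, 3 in gg8tTA and 1 in tetOP2. Neither Olfr130 nor Olfr112 was chosen in a swap library or in control replicate 1. Olfr129 was chosen by 1 and 2 control, 1 swap replicate 2, 1 gg8tTA and 2 tetOP2 mOSNs. Olfr101 was chosen by 2 and 5 mOSNs of the swap libraries and by none elsewhere. Olfr90, Olfr99, Olfr117 and Olfr124 followed with 6 mOSNs each, of which Olfr99 had 3 in swap replicate 1 and Olfr117 had 3 in control replicate 2.

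**Figure D1:**
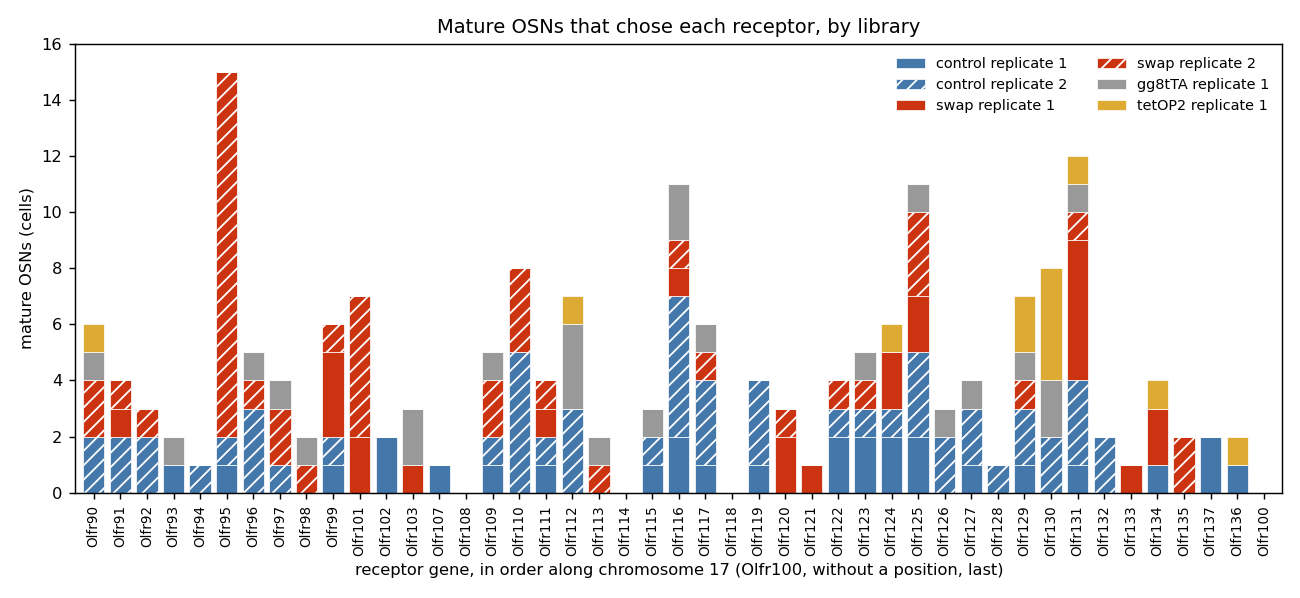
Number of mature OSNs that chose each of the 45 ORs, stacked by library, with the genes in order along chromosome 17 and Olfr100, which has no position, last. The highest bar is Olfr95 with 15 cells, 13 of them from swap replicate 2, and 4 genes have no cell.

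By the MOR family numbers of RefSeq, the 45 ORs fall into MOR256 with 16 genes, MOR218 with 9, MOR263 with 7, MOR156 with 5, MOR250 with 4, MOR249 (Olfr110) and MOR121 (Olfr96) with 1 each, and 2 genes without a number. MOR256 was chosen by 66 mOSNs, MOR218 by 42, MOR263 by 34, MOR250 by 17 and MOR156 by 13. MOR256 had 11 and 19 cells in the control libraries, 11 and 9 in the swap libraries, 7 in gg8tTA and 9 in tetOP2. MOR218 had 6 and 17 cells in control, 3 and 5 in swap, 10 in gg8tTA and 1 in tetOP2. As a share of mOSNs with an OR this was 0.624% and 1.44% in control against 0.459% and 0.534% in swap. MOR156 stood at 0.208% and 0.169% in control against 0.459% and 0.427% in swap, and MOR250 at 0.312% and 0.0845% against 0.459% and 0.748%. In these families the groups did not overlap, with MOR218 lower and MOR156 and MOR250 higher in swap, while MOR121, MOR249, MOR256 and MOR263 overlapped. With 2 libraries against 2, even complete separation has an exact permutation p of 0.333, so no difference is read from it. Of the 8 cells that chose MOR218 in swap mice, 5 chose Olfr125, and the other 8 MOR218 genes together had 1 and 2 cells in swap against 4 and 14 in control and 9 in gg8tTA. Olfr125 is the least alike of its family, with 68.9% identity to its closest relative Olfr112. This split of MOR218 was made after the values were seen and has no test.

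The mOSNs that chose Olfr90 to Olfr137 carried less Nqo1 and Acsm4, markers of dorsal neurons, and more of the ventral Ncam2 than other mOSNs did. Not all ventral markers followed Ncam2, since Rprm was lower in 6 of 6 libraries and Cidea in 5 of 6. Nqo1 stood at 265 CPM in these cells against 638 CPM in mOSNs with other ORs in control replicate 1, and at 38.2 against 543 CPM in control replicate 2. The values were 173 against 559 CPM and 135 against 758 CPM in the swap libraries, 84.9 against 936 CPM in gg8tTA and 47.7 against 545 CPM in tetOP2. Nqo1 was therefore lower in 6 of 6 libraries, and the ranges of both sets of cells did not overlap. Acsm4, an acyl-CoA synthetase of dorsal neurons, was also lower in 6 of 6 libraries, between 11.2 and 101 CPM against 158 to 293 CPM. Ncam2, the ventral adhesion molecule, was higher in 6 of 6 libraries, at 136.9 against 104 CPM and 196 against 115 CPM in control, 108 against 69.0 CPM and 121 against 59.5 CPM in swap, 75.5 against 48.1 CPM in gg8tTA and 95.3 against 52.4 CPM in tetOP2. The protocadherin Pcdh17 was higher and the pyrophosphatase Ppa1 lower in all 6 libraries too, as were Sult1c1, a sulfotransferase, Rprm, a gene of the ventral list, and Avp, the vasopressin precursor, in the lower direction. Avp stood at 0 against 215 CPM and 0 against 128 CPM in the control libraries. Sult1c1 stood at 11.4 against 12.1 CPM in control replicate 1 and at 6.94 against 581 CPM in swap replicate 1. The part of supporting-cell RNA in the difference of Sult1c1 was not tested.

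**Figure D2:**
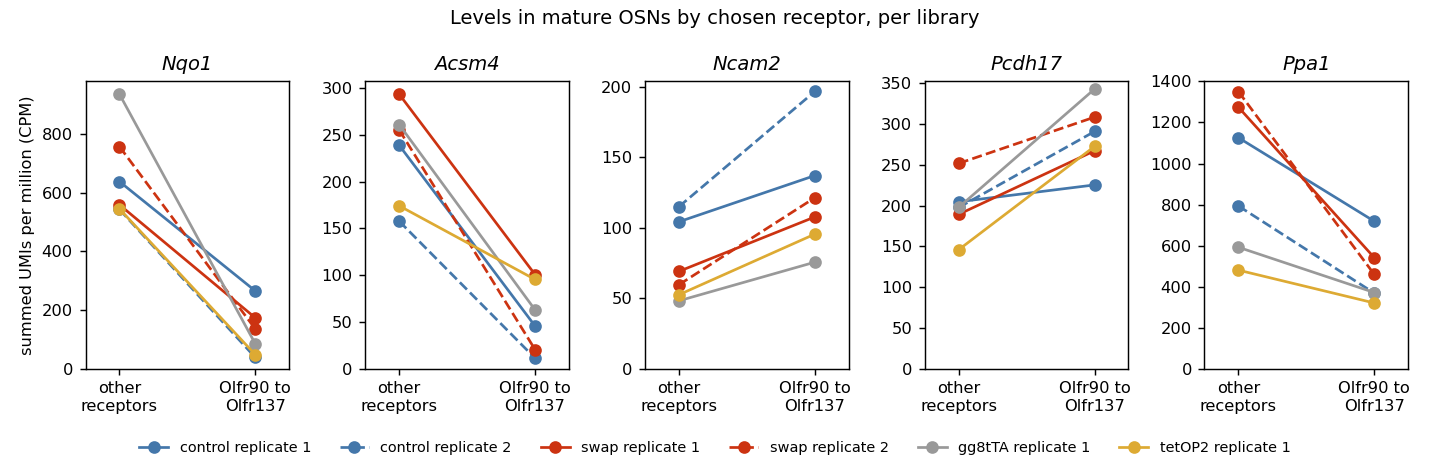
CPM from summed UMIs of 5 genes in mature OSNs that chose another OR (left) and in those that chose Olfr90 to Olfr137 (right), 1 line per library with replicate 2 dashed. Nqo1, Acsm4 and Ppa1 fall and Ncam2 and Pcdh17 rise from left to right in 6 of 6 libraries. The ventral marker Rprm, not drawn, also falls in 6 of 6.

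A gene was called in this comparison where its log2 fold change exceeded 0.58 in either direction at an adjusted p under 0.05, with edgeR on the UMIs summed per library in the control and gg8tTA libraries and the library as a block. It called 61 of 11550 genes other than OR genes (0.528%), 22 higher and 39 lower in the mOSNs of Olfr90 to Olfr137. Of 5 dorsal markers, 2 were lower, Nqo1 (log2 fold change −2.59, SE 0.09, edgeR adjusted p = 4.4e-158) and Acsm4 (−2.64, SE 0.16, edgeR adjusted p = 4.39e-57), and none was higher. Of 8 ventral markers, Ncam2 was higher (0.77, SE 0.11, edgeR adjusted p = 7.81e-09) and Rprm lower (−1.48, SE 0.24, edgeR adjusted p = 3.5e-07). The remaining markers were not called, among them the nuclear factor Nfix at 0.30, and Cidea of the ventral list at −0.43 (edgeR adjusted p = 0.0135), which was lower in 5 of 6 libraries. The dorsal complement regulator Cd55, at −0.56 and just inside the limit on fold change, was called lower with all 6 libraries (−0.90, edgeR adjusted p = 0.00169) and in the swap libraries alone (−1.94, edgeR adjusted p = 3.54e-12). The median log2 fold change was −0.56 for the dorsal and 0.06 for the ventral markers, against −0.05 over all genes tested. The fit found almost no spread between the 3 libraries beyond counting error (common dispersion 0.00272) and gave that spread to every gene, so its very small p-values mainly reflect counting error. With a robust edgeR fit, which lets genes of unusual spread keep it, 53 genes were called, Acsm4 and Ncam2 among them, and Nqo1 was not (adjusted p = 0.880). DESeq2 called 2 genes, Pcdh17 and Ppa1, with an adjusted p of 0.051 for Nqo1. Without the library block edgeR called 0 genes, and 78 at an unadjusted p below 0.05. Without control replicate 2, which holds more of these cells than the other 2 together, 16 genes were called.

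Of the 4 lists of the OSN programme no gene was called, where 0.528% of all genes tested were, so a count of 0 in lists of this size is near the background. None of 14 genes of odour transduction, such as the G protein Gnal, the cyclase Adcy3 and the channel subunit Cnga2, was called in either direction, and their median log2 fold change was −0.06. None of 7 genes of OR trafficking and feedback, such as Rtp1 and Atf5, was called (median −0.08), nor any of 13 genes of OR choice and chromatin, such as Lhx2, Ldb1 and Cbx1 (−0.08). Of 15 genes of axon adhesion and guidance none was called (−0.06). In that list the protocadherin Pcdh10 had a log2 fold change of −0.39 with an edgeR adjusted p of 0.00865 and the teneurin Tenm2 one of 0.28 with 0.0355, both below the limit on fold change. In the swap libraries alone Pcdh10 (−0.63, edgeR adjusted p = 0.0127) and the plexin Plxna1 (−0.83, edgeR adjusted p = 0.0436, against −0.16 in the control and gg8tTA libraries) were called lower.

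The 8 called genes with the smallest adjusted p in each direction held 5 genes of supporting cells. Cyp2g1, Cyp2a5, Cyp1a2, Aldh2 and Cpm were higher by 0.59 to 1.17 on the log2 scale over the 3 libraries, but 4 of them were higher in 2 of 6 libraries and Cyp1a2 in 3. The 5 sustentacular markers summed to 4304 CPM in these mOSNs against 2238 CPM in others in control replicate 2 and to 2598 against 1639 CPM in swap replicate 2. In the other 4 libraries they stood at 14.6 to 149 CPM against 55.3 to 582 CPM, below the other mOSNs in each. Without control replicate 2 the log2 fold change turned to −0.46 for Cyp2g1, −0.76 for Cyp2a5, −0.59 for Cyp1a2, −0.65 for Aldh2 and −0.73 for Cpm. The part of supporting-cell RNA in this comparison was not tested. Bpifa1 and Reg3g, secreted proteins of epithelia, had log2 fold changes of −2.34 and −2.36, and their highest levels were those of the other mOSNs in gg8tTA, at 1950 and 693 CPM. Isg15, an interferon-induced gene, had a log2 fold change of 2.93 and was higher in 3 of 6 libraries, and Tshz1, a zinc finger factor, had −0.95 and was lower in 4 of 6.

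Cell by cell, Nqo1 was detected in 43 of the 189 mOSNs (22.8%, exact 95% binomial interval 16.98% to 29.4%) against 40.1% of the other 4791, at median depths of 12838 and 12225 UMIs. Acsm4 was detected in 16.9% against 44.4%, Ncam2 in 66.1% against 42.2% and Nfix in 93.1% against 73.0%. For these genes the shares go the same way as the levels. Dorsal Robo2 was detected in 56.6% against 54.0%, Cd55 in 25.9% against 23.5% and Sema3f in 14.3% against 14.2%. The share of Cd55 thus did not follow its log2 fold change. Ventral Nrp2 (52.9% against 41.4%), Nfib (63.0% against 53.1%) and Pcp4l1 (67.7% against 57.6%) were higher. Nfia (19.0% against 19.7%), Rprm (11.1% against 13.2%) and Cidea (48.7% in both) were not. With each cell thinned to 3000 UMIs, the share with Nqo1 was 25.0% and 7.27% in the control libraries, 20.8% and 17.4% in the swap libraries, 8.33% in gg8tTA and 8.33% in tetOP2, against 27.0% to 40.8% in the other mOSNs of each library. The swap libraries differed from control by 2.98 points (19.1 ± 2.43% against 16.1 ± 12.5%, SD, n = 2 each, exact permutation p = 1). The control libraries lay on both sides of the swap libraries, and without control replicate 2 the difference was −5.89 points. With 2 libraries against 2 the smallest p of this exact permutation test is 0.333, so no library-level comparison of swap with control could pass 0.05.

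Of the 13 ventral and dorsal markers, 9 were summarised by a score, the mean standardized level of Ncam2, Nrp2, Nfia, Nfib and Nfix less that of Nqo1, Acsm4, Robo2 and Sema3f, ranked as a percentile among the mOSNs with an OR of the same library. The score leaves out Cd55 and the ventral Rprm, Cidea and Pcp4l1. Rprm (log2 fold change −1.48), Cidea (−0.43) and Cd55 (−0.56) were lower in these cells, though only Rprm was called, and Pcp4l1 stood at −0.02. The median percentile was 60.4 in the mOSNs of Olfr90 to Olfr137 against 49.4 in others. By library it was 54.2 and 59.7 in control, 60.2 and 72.3 in swap, 67.9 in gg8tTA and 47.3 in tetOP2, so tetOP2 alone fell below 50. With all 13 markers in the score, a choice made after the data were seen, the median was 63.1 against 49.2, and by library 58.0 and 57.3 in control, 60.6 and 77.5 in swap, 57.0 in gg8tTA and 44.6 in tetOP2. Of the 16 ORs chosen by at least 5 mOSNs, 14 had a median above 50 (87.5%), against 54.2% of the other 371 ORs with as many cells (with 13 markers 87.5% against 51.2%), and 7 had no cell with Nqo1 (43.8%) against 30.7%.

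The ORs differed among themselves in these markers, in values that pool the cells of all libraries. Olfr99 of MOR156 had the most dorsal median, at the 26.3 percentile, with Nqo1 in 4 of its 6 mOSNs and Robo2, the axon guidance receptor of dorsal neurons, in 6 of 6. Of these 6 mOSNs, 1 and 1 were from the control libraries and 3 and 1 from the swap libraries. Olfr129 of MOR263 followed at 39.3, with Nqo1 in 3 of 7 and Acsm4 in 4 of 7 mOSNs. At the other end, Olfr124 of MOR256 stood at 96.0 with Nqo1 and Acsm4 in 0 of 6 mOSNs and Ncam2 in 5 of 6. Olfr112 at 78.9, Olfr125 at 77.2 and Olfr110 at 77.0 came next. Nqo1 was found in 1 of 7, 0 of 11 and 0 of 8 of their mOSNs, and Ncam2 in 8 of 8 of those of Olfr110. A count of 0 of 8 cells still allows a share of up to 36.9% at the 95% level, so neighbours in this order are not separated. Olfr95 lay in the middle at 50.1, with Nqo1 in 5 of 15 mOSNs, and its cells in the library where it was frequent ranged from the 37.2 to the 85.0 percentile. By family, MOR249 (Olfr110) stood at a median percentile of 77.0 and MOR121 (Olfr96) at 74.3, with Nqo1 in 0 of 8 and 0 of 5 mOSNs. MOR218 had Nqo1 in 2 of 42 mOSNs and a median of 68.9, MOR250 stood at 65.8, MOR256 at 56.6, MOR263 at 51.5 and MOR156 at 46.8. Within a family the libraries differed too. MOR250 stood at 37.6 and 65.8 in control, 56.4 and 79.6 in swap and 43.1 in gg8tTA. MOR156 stood at 52.4 and 42.4 in control, 21.9 and 65.0 in swap and 53.1 in gg8tTA. The part of the mix of libraries in the order was not tested. Olfr111, the closest neighbour of Olfr110, has no family number. Its 4 mOSNs stood at 43.1, with Nqo1 in 3 of 4 and Acsm4 in 2 of 4. The order depended on the markers taken. With all 13, MOR250 was highest at 76.6 and MOR218 stood at 59.4, below MOR256 at 65.3 and MOR263 at 63.8. Olfr99 and Olfr124 kept the ends of the order of single ORs, at 22.4 and 95.5, while Olfr112 moved to 54.7.

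**Figure D3:**
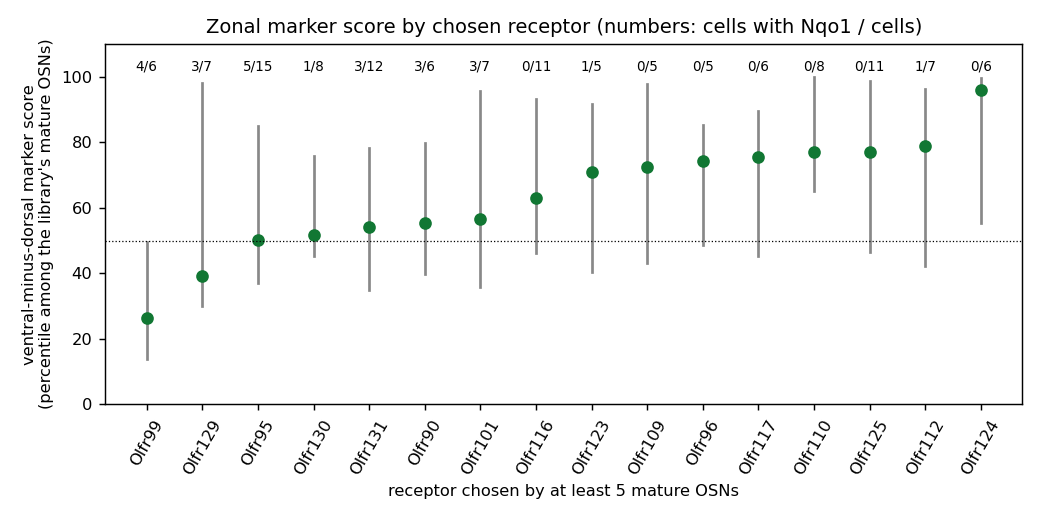
Ventral-minus-dorsal marker score of the mature OSNs that chose each OR with at least 5 cells, as the percentile among the mature OSNs of the same library, with the cells of all libraries pooled. Points are medians, lines run from the lowest to the highest cell, numbers give cells with Nqo1 of all cells, and medians run from 26.3 for Olfr99 to 96.0 for Olfr124.

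Whether the HP1β to HP1α swap changed how often this group of ORs was chosen was asked first for the group as a whole. Of mOSNs with an OR, 28 of 962 (2.91%) and 55 of 1183 (4.65%) chose one of the 45 genes in the control libraries, and 24 of 654 (3.67%) and 46 of 936 (4.91%) in the swap libraries. The swap values lay among and just above the control values, and the exact 95% binomial intervals of all 4 overlapped. Swap exceeded control by 0.512 points (4.29 ± 0.880% against 3.78 ± 1.23%, SD, n = 2 each, exact permutation p = 0.667), and the difference was −0.357 points without control replicate 1 and −0.110 points without swap replicate 2. Immature OSNs, defined by at least 10 Gap43 UMIs and no fewer Gap43 than Omp UMIs, gave shares of 3.51% and 4.61% in control and 3.73% and 4.92% in swap. That difference was 0.268 points (4.33 ± 0.842% against 4.06 ± 0.775%, n = 2 each, exact permutation p = 0.667), and it was −0.280 points without control replicate 1 and −0.327 points without swap replicate 2.

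In gg8tTA, 24 of 599 mOSNs (4.01%, 2.58% to 5.90%) chose Olfr90 to Olfr137, against 12 of 646 (1.86%, 0.963% to 3.22%) in tetOP2. Olfr17, the OR driven by the tetOP2 transgene, was the chosen OR of 382 of those 646 mOSNs (59.1%). Among the 264 that chose another OR the share was 4.55% (2.37% to 7.81%), near that of gg8tTA. Immature OSNs had shares of 5.88% in gg8tTA and 4.30% in tetOP2.

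**Figure D4:**
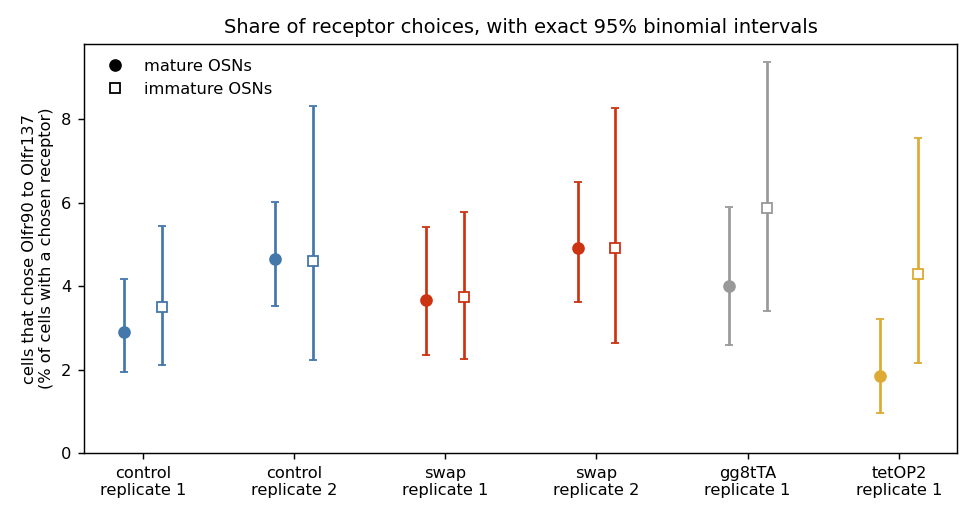
Share of OSNs with a chosen OR whose OR was one of Olfr90 to Olfr137, in % per library, for mature (filled) and immature (open) OSNs, with exact 95% binomial intervals. The mature shares run from 1.86% in tetOP2 to 4.91% in swap replicate 2, and swap and control intervals overlap.

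The number of different ORs of the set among equal numbers of cells was lower on average in swap libraries. In 654 mOSNs with an OR, 15.8 and 19.9 of the 45 were found in control and 13 and 17.4 in swap. The ranges overlapped, and the difference of −2.68 ORs (15.2 ± 3.09 against 17.9 ± 2.91, SD, n = 2 each, exact permutation p = 0.667) was within the spread of either group. It kept its sign with each library left out, from −4.86 to −0.494. Of the 45 ORs, 14 were chosen in control and not in swap libraries, 8 the other way round, 19 in both and 4 in neither. Control alone thus held 31.1% of the 45 against 29.8% of the other OR genes, and swap alone 17.8% against 7.75%. The control libraries held more mOSNs with an OR, 2145 against 1590, and these shares were not tested. Olfr115, Olfr119 and Olfr127 were chosen in both control libraries and no swap library, which is 6.67% of the 45 against 10.9% of all OR genes. Olfr101 and Olfr120 were chosen in both swap libraries and no control library, 4.44% against 2.42% of all OR genes.

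Larger differences were seen in single ORs. Olfr101 had 387 and 1172 UMIs in the mOSNs of the swap libraries, from 2 and 5 cells, against 1 and 0 UMIs in control and 0 in gg8tTA and tetOP2. Its swap values lay above every other library. UMIs of 1 cell are not independent, so no interval is given for the ratio of UMIs. By cells, its swap mean was 4.20 per 1000 mOSNs with an OR, where none in control allows up to 1.40. Among immature OSNs it was chosen by 1 cell, in control replicate 1. The 7 mOSNs held 100 to 301 UMIs of Olfr101 and at most 1 UMI of a second OR, so each held 1 dominant OR. They were mixed by zone, since 3 held Nqo1 and no Ncam2 while 3 held Ncam2 and neither Nqo1 nor Acsm4, and their score ran from the 35.8 to the 95.6 percentile. The 2 mOSNs that chose its neighbour Olfr102 were in control replicate 1 and held 3 and 5 UMIs of it.

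Olfr120, of MOR263, was the other OR seen in both swap libraries and in no mOSN of control. It had 93 and 95 UMIs there, from 2 cells and 1 cell, against 0 and 0 in control, 1 in gg8tTA and 0 in tetOP2. By cells, its swap mean was 2.06 per 1000 mOSNs with an OR, where none in control allows up to 1.40. That mean rests on the same few cells. The exact 95% binomial intervals of both swap libraries reach below 1.40, so the difference in cells is not read as exceeding this limit. Immature OSNs that chose Olfr120 numbered 4, of which 2 were in swap replicate 1 and 1 each in gg8tTA and tetOP2. The OR was thus also chosen by immature cells outside the swap libraries. Its near-identical neighbour Olfr118 was chosen in no library.

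Olfr95 had the largest difference in cells, at 6.94 ± 9.82 per 1000 mOSNs in swap against 0.942 ± 0.137 in control (SD, n = 2 each), and all of it came from swap replicate 2. Its UMIs were 144 and 130 in control, 0 in swap replicate 1 and 3070 in swap replicate 2. The 13 mOSNs of that library held 154 to 471 UMIs of Olfr95, more than the 144 and 130 UMIs of the single control cells, and 1 immature OSN of the library chose it too. Olfr131 was highest in the other swap library, with 168 and 514 UMIs in control, 661 in swap replicate 1 and 164 in swap replicate 2. Olfr99 had 350 and 184 UMIs in control, 1058 in swap replicate 1 and 255 in swap replicate 2. In each of these 3 ORs the swap libraries differed from each other by more than swap differed from control. Olfr125 overlapped between the groups, with 115 and 406 UMIs in control and 110 and 285 in swap.

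Olfr127, of MOR218, had 227 and 343 UMIs in control and 172 in gg8tTA, from 1, 2 and 1 mOSNs, and 0 UMIs in both swap libraries and in tetOP2. By cells, none in the swap libraries still allows 1.89 per 1000 mOSNs with an OR. That lies above the control mean of 1.37 for Olfr127, so no fold bound is given. Olfr119, of MOR263, had 47 and 260 UMIs in control and 0 in every other library, although 1 immature OSN of swap replicate 2 chose it. Its control mean of 1.79 cells per 1000 also lay below the limit of 1.89. Neither was detected in the mOSNs of the swap libraries, and the control values rest on 3 and 4 cells. Olfr115 had 17 and 37 UMIs in control and 80 in gg8tTA against 0 and 0 in swap, where 3 immature OSNs chose it. Olfr112 had 793 UMIs in control replicate 2, 325 in gg8tTA and 175 in tetOP2, and 0 in both swap libraries and in control replicate 1. Its control libraries thus differed from each other by more than their mean differed from swap. Olfr116 was lower in both swap libraries, at 93 and 149 UMIs against 169 and 634 in control, and held 264 in gg8tTA and 0 in tetOP2.

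**Figure D5:**
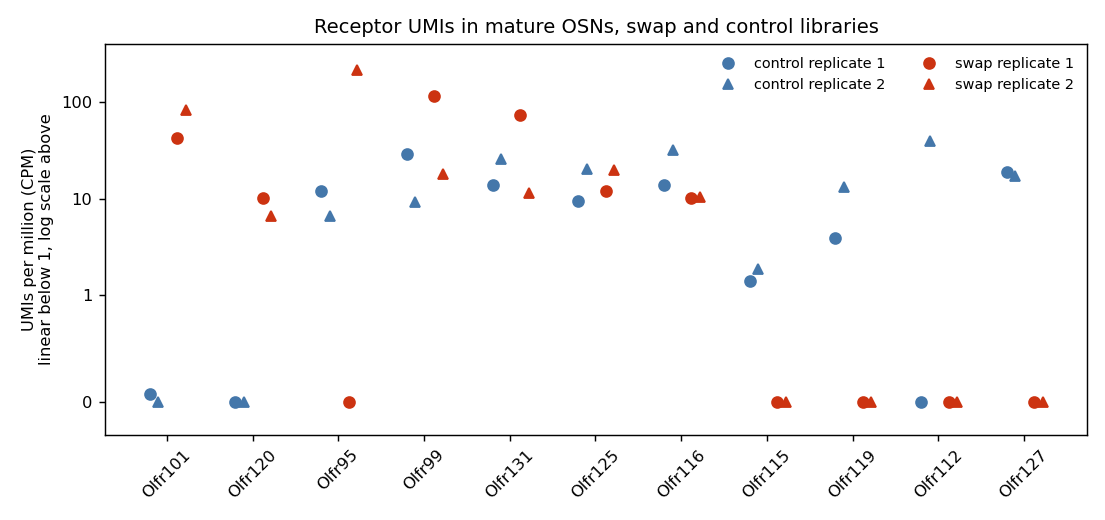
CPM from UMIs of 11 ORs in the mature OSNs of the swap and control libraries, circles for replicate 1 and triangles for replicate 2, on an axis that is linear below 1 and logarithmic above. Olfr101 and Olfr120 are at or near 0 in control only, Olfr115, Olfr119 and Olfr127 in swap only, and Olfr95 is high in swap replicate 2 alone.

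The tests across all genes put these differences against the spread of 2 libraries per group. On summed UMIs, edgeR called 0 of the 24 ORs of the set that passed its filter on low counts, and 0% of 576 OR genes and 0% of 13298 genes. At an unadjusted p below 0.05 it had 5 of the 24, against 172 of 576 OR genes. These 5 were Olfr101 (log2 fold change 10.58, SE 0.885, edgeR adjusted p = 0.162), Olfr120 (9.88, 0.185), Olfr127 (−10.96, 0.163), Olfr119 (−9.87, 0.413) and Olfr115 (−7.51, 0.556), where the second value is the adjusted p and the fitted fold change of a gene at 0 depends on the prior count. DESeq2 called 5 of 39 ORs of the set with an adjusted p, Olfr101 and Olfr120 higher and Olfr112, Olfr119 and Olfr127 lower, against 20.1% of 825 OR genes. Fits with 1 library left out leave a single library in 1 group, and their calls are not counted here. The median log2 fold change of the 24 was −0.00124 against −0.191 over the OR genes tested, and 12 of 24 lay below 0 against 54.2%.

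Without a model, 4 of the 24 ORs (Olfr115, Olfr116, Olfr119 and Olfr127) were lower by CPM in both swap libraries than in both control libraries, or 16.7%, and 27.8% of the 576 OR genes tested were. In the other direction Olfr101, Olfr111 and Olfr120 did not overlap, or 12.5%, against 18.9%. The filter keeps ORs with enough counts in at least 2 libraries. Olfr115, Olfr119, Olfr120 and Olfr127, with 0 UMIs in one group, and Olfr101, with 1 UMI in control, passed it only through the group in which they are high and had to differ. Nothing is therefore read from these shares, from the edgeR and DESeq2 results of these ORs, or from the median of the 24. Olfr112, which DESeq2 also called, had 0 UMIs in both swap libraries and in control replicate 1, so nothing is read from that call either. The 21 ORs left out, Olfr112 among them, are in neither count.

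Counting cells in place of UMIs takes the amount of OR RNA per cell out of the comparison. Of the 9 ORs of the set with at least 5 mOSNs in the swap and control libraries, edgeR called 0, and 1.37% of the 291 OR genes tested. At an unadjusted p below 0.05 it had 2 of the 9, against 44 of the 291. These were Olfr95 (log2 fold change 2.88, SE 1.03, edgeR adjusted p = 0.174) and Olfr101 (5.07, SE 2.00, edgeR adjusted p = 0.218), and DESeq2 called 0 of the 9. Olfr101 reached the minimum of 5 cells through swap cells alone, and Olfr95 only through swap replicate 2. The fit used a spread shared between ORs, although Olfr95 had 0 and 13 cells in the swap libraries. Nothing is therefore read from these 2 ORs. Per 1000 mOSNs with an OR, Olfr101 had 4.20 ± 1.61 cells in swap against 0 in control, Olfr131 2.57 more and Olfr99 1.89 more in swap, and Olfr125 0.824 more. Olfr116 had 1.30 ± 0.326 in swap against 3.15 ± 1.52 in control, Olfr117 0.534 ± 0.755 against 1.79 ± 1.06, and Olfr110 1.60 ± 2.27 against 2.11 ± 2.99, and Olfr124 differed by 0.0669. The median log2 fold change in cells of the 9 was 0.41, against 0.40 over the OR genes tested.

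The amount of OR RNA in a cell ranged more widely between ORs than between groups. Cells that chose one of the 45 ORs held a median of 81 and 149 UMIs of it in control, 86.5 and 164 in swap, 107 in gg8tTA and 89 in tetOP2. Replicates numbered 2 were higher in both groups, and other ORs showed the same order, with 70 and 101.5 UMIs in control and 59 and 92 in swap. The swap libraries exceeded control by 10.25 UMIs (125 ± 54.8 against 115 ± 48.1, SD, n = 2 each, exact permutation p = 0.667), and this turned to −28.5 without swap replicate 2 and −23.75 without control replicate 1. Among the ORs, medians ran from 19 to 327 UMIs, except for Olfr94, Olfr98 and Olfr102. Each of the 5 cells that chose these 3 ORs held 3 to 7 UMIs of the chosen OR, and they are the least certain choices. Olfr96 had the highest median at 327 UMIs, followed among ORs with at least 5 cells by Olfr99 at 293.5 and Olfr101 at 271. Olfr111 stayed at 28 to 39 UMIs in its 4 cells from 4 libraries, below Olfr110, its closest neighbour, at 132 to 294 UMIs.

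Few of these cells held a second OR. At a minimum of 3 UMIs a second OR was found in 6 of 189 mOSNs (3.17%, 1.17% to 6.78%), against 302 of 4791 mOSNs with other ORs (6.30%, 5.63% to 7.03%), and the chosen OR held 98.7% of all OR UMIs against 97.6%. These values pool the libraries, which went both ways. The share was higher than in other mOSNs in control replicate 1 (7.14% against 4.82%) and swap replicate 1 (8.33% against 5.40%). It was lower in control replicate 2 (1.82% against 9.04%), swap replicate 2 (0% against 6.40%), gg8tTA (4.17% against 6.43%) and tetOP2 (0% against 4.26%). In 3 of the 6 the second OR was also one of the 45, as Olfr125 beside Olfr124, Olfr125 beside Olfr116 and Olfr92 beside Olfr91, at 4 to 6 UMIs, and none of these was a near-identical partner. In 1 mOSN of control replicate 2 with 386 UMIs of Olfr97, Olfr222 held 155 UMIs.

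Counts of these ORs also occurred outside the cells that chose them. Among cells with a sustentacular profile, which express no OR, 1.74% to 16.4% per library held at least 1 UMI of Olfr90 to Olfr137, at median depths of 12041 to 18056 UMIs, and 1 of 436 such cells in swap replicate 2 reached 3 UMIs of one of them. The share was highest in gg8tTA, where 10 of 61 such cells and 9.39% of the mOSNs with another OR held 1 UMI or more. Not all counts outside the choosing cells were low. In the mOSNs of swap replicate 2, Olfr92 had 270 UMIs, of which 119 lay in the cell that chose it. In control replicate 2 these values were 340 and 259. Olfr91 had 47 UMIs in the mOSNs of gg8tTA, where none chose it. Among mOSNs with another OR, 1 of 890 in swap replicate 2 and 2 of 1128 in control replicate 2 held at least 3 UMIs of one of the 45. Of all UMIs of the 45 ORs in mOSNs, 96.0% to 99.4% per library lay in cells that chose the gene.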

How the data were processed

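Single-cell RNA-seq of the mouse MOE was analysed in 6 libraries. The authors deposited counts, UMIs by gene and cell barcode, made with Cell Ranger on mm10 with intron reads included and not normalized. Per the file headers, the swap and control files came from version 3.1.0, and for the other 2 no version is given in the sources used here. Of 2563 to 7703 barcodes per library, cells passed at a minimum of 1000 UMIs and 500 genes. Doublets were removed as the cells with the most simulated doublets among 50 neighbours in 30 principal components of 2000 variable genes, at 0.8% per 1000 cells (scikit-learn 1.9.0). Sustentacular cells were gated by their markers.

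UMIs summed per library, and cells per chosen OR, were tested with edgeR 4.0.16 (R 4.3.3), its quasi-likelihood test, TMM normalization for UMIs and Benjamini-Hochberg adjustment over all genes or ORs tested. OR genes were left out where cells with different ORs were compared. Thresholds were those of the study's RNA-seq methods. Library values were compared by exact two-sided permutation with scipy 1.17.1. Intervals are exact (Clopper-Pearson) at 95%, a count of 0 cells was bounded at 3, and both cover counting error only. The edgeR steps were tested on simulated data. Pairs of ORs were aligned with blastn 2.17.0 on GENCODE M21 transcripts, and RefSeq gave the MOR numbers. Alternatives included DESeq2 1.42.0, other gates, minimums and filters, a replicate block and each library left out.

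Values in full were given for the 12 ORs chosen most often with ties, the 6 with the largest rise and fall between control and swap among those with at least 5 cells, every called OR, the zonal markers, and the 8 called genes with the smallest adjusted p in each direction. The genes and lists were chosen with earlier results of these data known. A part of the genotype labels is not reported here.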

Additional observations from a re-analysis of the deposited data

How the results depend on the processing

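For Olfr90 to Olfr137 no comparison of swap with control passed a threshold under its main settings, and 2 libraries per group limit every such comparison. The number of ORs of the set called by UMIs with edgeR was 0 under the other normalization, filter, gate, doublet handling and the replicate block, ranged from 0 to 9 with 1 library left out, and was 5 with DESeq2. The fits with 1 library left out keep a single library in 1 group, and those that called ORs of the set also called other genes. Nothing about the set is therefore read from their range. Each of the 5 ORs that DESeq2 called had 0 or 1 UMI in 1 group, so nothing is read from those calls either. The number called by cells was 0 under each alternative tried. With 1 library left out, where a lone library is taken to vary like the other group, the swap minus control difference ranged from −0.357 to 1.38 points for the share of mOSNs, −0.327 to 0.864 points for immature OSNs, −5.89 to 11.8 points for the thinned share with Nqo1, −28.5 to 49 UMIs per cell and −4.86 to −0.494 different ORs. Libraries share only replicate numbers, which were not taken as a pairing. Deviations from the group mean correlated at 0.298 over 13298 genes between libraries of the same number. With 2 libraries per group both numbers must give the same value, so this is 1 value. Within replicate numbers 1 and 2 the differences, added after the data were seen like the robust fit, were 0.759 and 0.265 points for the share, 0.221 and 0.316 points in immature OSNs, 5.5 and 15 UMIs and −2.80 and −2.55 ORs, and for Nqo1 the block gave −4.17 points in number 1 and 10.1 points in number 2. Between cells of Olfr90 to Olfr137 and other mOSNs, 61 genes were called, 77 with all 6 libraries, 86 in the swap libraries alone, 73 without a filter on low counts, 53 with the robust fit, 2 with DESeq2 and 0 without the library block, and 16 to 58 with 1 library left out. The log2 fold change turned with all 6 libraries for Cyp2a5 (−0.30), in the swap libraries alone for Cyp2g1 (−0.41), Cyp2a5 (−1.29), Isg15 (−1.11) and Bpifa1 (0.24), with DESeq2 for Cyp2g1 (−0.065), Cpm (−0.022), Cyp2a5 (−0.20) and Aldh2 (−0.17), and without control replicate 2 for 5 genes. With 1 library left out the values ranged from −0.46 to 0.88 for Cyp2g1, −0.73 to 1.32 for Cpm, −0.76 to 0.75 for Cyp2a5, −0.65 to 0.67 for Aldh2, −0.59 to 0.87 for Cyp1a2 and −3.08 to 0.30 for Reg3g, the last reached without gg8tTA. Of 240 alternative values of single named genes, 15 turned direction, 52 lost their call, 14 gained one and 159 kept direction and side. The causes were not tested.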

Other observations

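Immature and mature OSNs did not choose the same ORs of the set equally often. Olfr128 was chosen by 7 immature OSNs, 2 and 3 in the control libraries and 2 in gg8tTA, and by 1 mOSN, in control replicate 2. No swap library held a cell of either kind that chose Olfr128. Olfr115 was chosen by 6 immature OSNs and 3 mOSNs, and Olfr114, chosen by no mOSN, by 2 immature OSNs. In the other direction Olfr95 was the choice of 15 mOSNs and 1 immature OSN, and Olfr101 of 7 mOSNs and 1 immature OSN. These counts were picked after they were seen and were not tested.

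Names with a pseudogene suffix within the same numbers were left out of the set. When they were allowed as a choice, Olfr104-ps was the OR of 2 mOSNs in control replicate 2 and 1 each in swap replicate 2 and gg8tTA. Olfr105-ps was that of 1 mOSN in each control library and 2 in swap replicate 1, and Olfr106-ps that of 1 mOSN in control replicate 1.

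Olfr131 had no close relative among the 45, its best match being Olfr1359 at 66.1% identity, and it was the OR present in all 6 libraries. Olfr137, at the distal end of the series of names, was chosen by 2 mOSNs, both in control replicate 1, and by 3 immature OSNs.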
